A study of Mus musculus with 12 samples.

Results

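The 7 genes that encode NMDA receptor subunits in the mouse, Grin1, Grin2a, Grin2b, Grin2c, Grin2d, Grin3a and Grin3b, were followed through a ChIP-seq study of the histone mark H3K9me2 in prefrontal cortex. A region belonged to a subunit gene if it overlapped that gene or, where it overlapped no named gene, if that gene had the closest transcription start. By this rule the genes held 23 of 33787 regions in the table that sets FAD against WT and 36 of 43680 regions in the table that sets FAD-BIX against FAD. All of these regions belonged to Grin2a, Grin2b or Grin3a. Grin1, Grin2c, Grin2d and Grin3b had 0 regions in both tables.

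The groups were FAD-BIX (familial Alzheimer's disease mice treated with BIX01294, an inhibitor of the methyltransferases EHMT1 and EHMT2), FAD (mice of the same model without the inhibitor) and WT (wild-type mice). The labels name C57BL/6 as the strain of all 6 mice and give their age as 5 to 6 months. There were 2 mice in each of the 3 groups, with 1 ChIP and 1 input library from each mouse. The alleles and promoter of the FAD model, the dose and timing of BIX01294, and the sex of the mice are not given in the sources used here. Tissue punches hold all cell types of the cortex, so a change of the mark within cells and a change in the mix of cells cannot be told apart.

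NMDA receptors are glutamate-gated cation channels of excitatory synapses that need both glutamate and a co-agonist, and their calcium influx drives synaptic plasticity. GluN1, from Grin1, is present in every receptor. GluN2 subunits, from Grin2a to Grin2d, bind glutamate and set channel kinetics, and in the forebrain GluN2B prevails early in life while GluN2A rises with maturation. GluN3 subunits, from Grin3a and Grin3b, bind glycine and lower calcium permeability. H3K9me2 is laid down largely by EHMT1 and EHMT2 and is associated with silent chromatin.

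The ChIP libraries held 20450000 to 26580000 reads and the inputs 13920000 to 23760000 reads. Of each ChIP library 2.00% to 4.23% fell in regions. Of the regions of the 2 tables, 94.9% and 93.4% were called in 1 ChIP library only, and FAD ChIP 2 alone accounted for 60.3% and 44.9%. The mouse labelled FAD 1 stood apart at Thy1, a neuronal surface protein gene whose promoter often drives transgenes. The region at Thy1 in the table of FAD and WT held 0.16 RPM (reads of the region per 1e6 reads of the library) in its ChIP library and 40.3 RPM in FAD ChIP 2, against 0.204 and 0.0752 RPM in the WT libraries. The 3 regions at Thy1 in the other table held 395 and 376 RPM in FAD-BIX ChIP, against 0.802 RPM in the library labelled FAD 1 and 590 RPM in FAD ChIP 2. The inputs showed the same gap, with 0.627 and 24.1 RPM in FAD, against 0.0842 and 0.692 RPM in WT, and with 403 and 203 RPM in FAD-BIX, against 3.97 and 366 RPM in FAD over the 3 regions, so it was present before immunoprecipitation. At Thy1 this mouse was far below the other FAD and FAD-BIX mice in ChIP and input, so its label is in doubt, and with it every value and direction that rests on FAD. Over the regions of 20 heart muscle genes, of which 6 had any, the library labelled FAD 1 held 66.2 RPM and FAD ChIP 2 held 19.2 RPM, against 10.1 and 7.37 RPM in WT. In the table of FAD-BIX and FAD, regions lay at 7 of these genes, with 13.1 and 10.9 RPM in FAD-BIX, against 70.1 RPM in the library labelled FAD 1 and 19.8 RPM in FAD ChIP 2. Of the marker lists for other cells, 7 of 12 cortical neuron genes, 1 of 6 astrocyte, 2 of 6 oligodendrocyte, 3 of 4 endothelial and 0 of 5 microglia genes had regions in the table of FAD and WT, and the neuron list summed to 6.62 and 12.8 RPM in FAD, against 9.6 and 7.07 RPM in WT. In each pair of FAD values below, the first is from the library labelled FAD 1, and the folds of gene sums, single regions and partner genes were also computed without it. What these differences contribute to the values of the subunit genes was not tested.

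The subunit genes with regions were the 3 longest. Grin2a (chromosome 16, 9567901 to 9996083) spans 428.18 kb, Grin2b (chromosome 6, 135713221 to 136173615) spans 460.4 kb and Grin3a (chromosome 4, 49661611 to 49846023) spans 184.41 kb by the GRCm38.p6 annotation of RefSeq, and all 3 lie on the minus strand. Among protein-coding genes of 400 to 500 kb, 82.4% and 87.2% of 125 genes had a region in the table of FAD and WT and in that of FAD-BIX and FAD, with a median of 4 and 5 regions. Grin2a, with 12 and 19 regions, lay above the upper quartiles of these genes, which were 9 and 11. Grin2b had 7 and 11 regions, which lay between the median and the upper quartile in the first table and at the upper quartile in the second. Grin3a, with 4 and 6 regions, belongs to the class of 150 to 250 kb, where 49.7% and 54.1% of 739 genes had a region and the upper quartiles, 2 and 3, lay below its counts. All these counts, also those of the classes, include regions outside the gene that were given by the closest start. Inside the genes lay 9 and 12 regions of Grin2a, 6 and 9 of Grin2b, and 2 and 3 of Grin3a.

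The subunit genes without regions were short. Grin1, the gene of the obligatory subunit, lies on chromosome 2 (25291177 to 25319187, 28.01 kb), and the nearest region in each table was 325.12 kb and 380.66 kb away. Grin2c, most used in the cerebellum, lies on chromosome 11 (115249169 to 115267297, 18.13 kb), with the nearest regions at 1112.49 kb and 109.63 kb. Grin2d lies on chromosome 7 (45831883 to 45871194, 39.31 kb) with the nearest region at 90.77 kb in both tables, and Grin3b on chromosome 10 (79970397 to 79977190, 6.79 kb) at 464.49 kb and 31.09 kb. Of 16942 protein-coding genes under 50 kb, 12.4% and 14.2% had a region, so most genes of this length had none. A gene without a region was not called in any ChIP library of that table, and its reads were not analysed here.

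**Figure D1:**
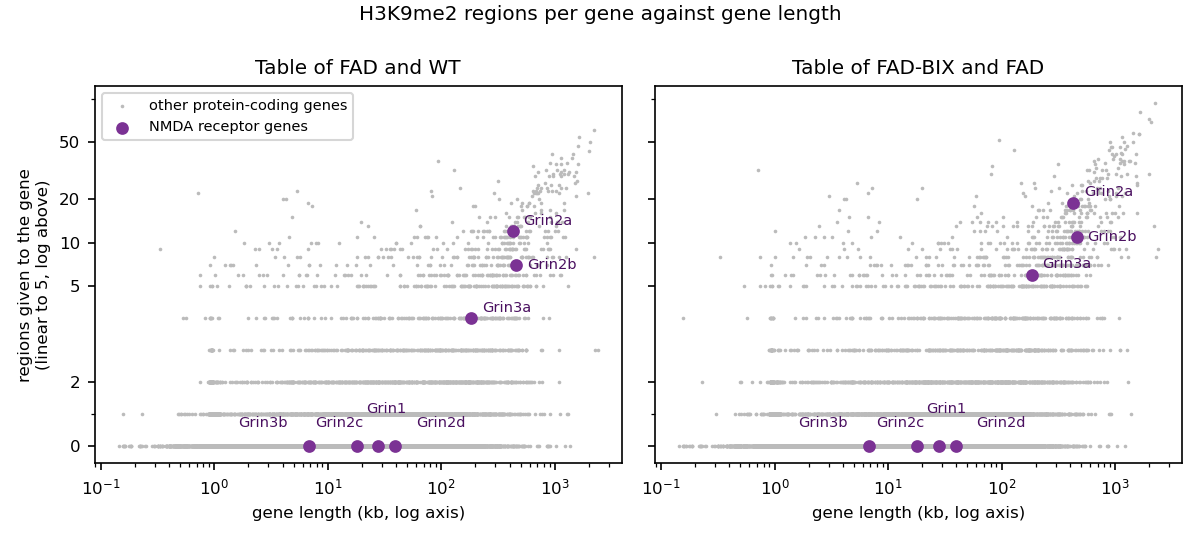
Number of H3K9me2 regions given to each protein-coding gene (vertical axis, linear to 5 and logarithmic above) against gene length in kb (logarithmic axis), for the table of FAD and WT and the table of FAD-BIX and FAD, with the 7 subunit genes in purple. Grin2a, Grin2b and Grin3a hold 12, 7 and 4 regions on the left and 19, 11 and 6 on the right, and the 4 short subunit genes sit at 0.

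Most regions of the subunit genes lay in introns. Their centres were intronic in 65.2% of the 23 regions and 61.1% of the 36, against 24.3% and 24.6% of all regions, which follows in part from the rule, since a region inside a gene is always given to it. Intron 3 of Grin2a held 5 and 7 regions, more than any other intron of the 3 genes. These lay 29.21 to 232.66 kb and 11.89 to 232.66 kb from the 5′ end, so this intron makes up much of the gene. Counts per intron were not set against intron length. Intron 3 of Grin2b held 2 and 4, and intron 3 of Grin3a held 1 and 2. The regions were 240 to 687 bp wide, with medians of 376 and 321.5 bp, and covered 0.786% and 1.02% of Grin2a, 0.518% and 0.69% of Grin2b and 0.642% and 0.716% of Grin3a.

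The regions were spread unevenly along the genes, and none overlapped a 5′ end. In Grin2a the region nearest the 5′ end inside the gene was 29.21 kb from it in the table of FAD and WT and 11.89 kb in that of FAD-BIX and FAD. In Grin2b these distances were 182.4 and 142.86 kb, and in Grin3a 75.08 and 75.17 kb. Outside the genes, Grin2a had 3 and 7 regions beyond its 3′ end, Grin2b had 1 and 2 regions upstream, and Grin3a had 2 and 3 upstream, all given by the closest start. Regions that touched an exon were few. In Grin2b they were a region in the 3′ UTR, a region that reached from intron 7 into exon 8 and, in the table of FAD-BIX and FAD, a region that reached from intron 9 into exon 10. In Grin3a a region lay in exon 3.

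**Figure D2:**
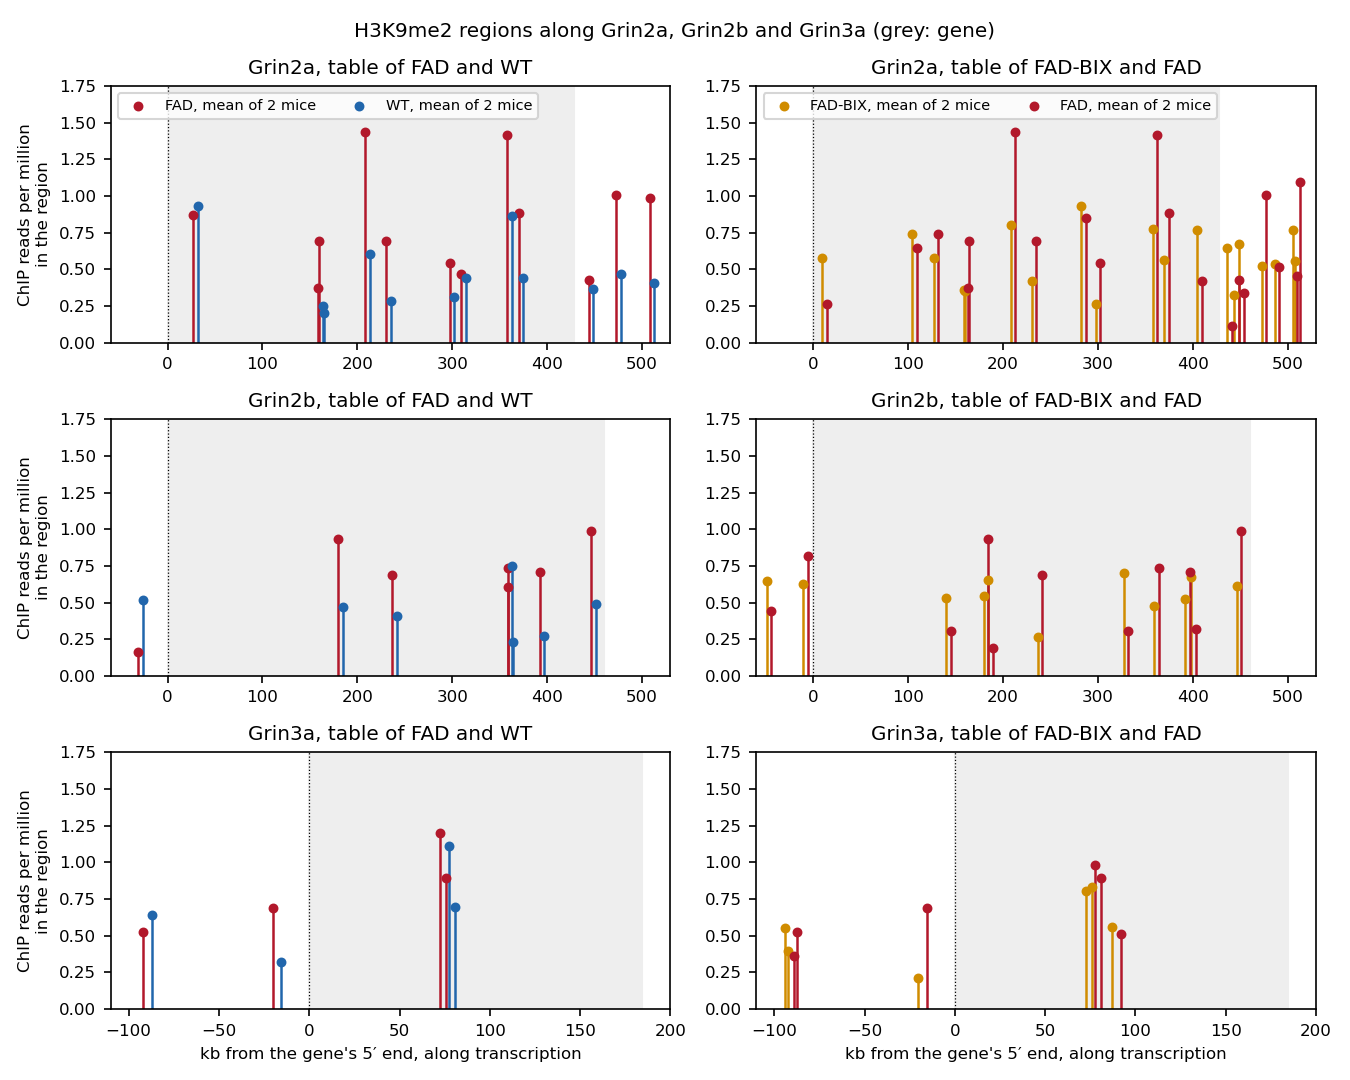
Mean ChIP RPM of 2 mice in each region (vertical axis) along Grin2a, Grin2b and Grin3a in kb from the gene's 5′ end (horizontal axis; grey, the gene; negative, upstream), with the groups of each table drawn slightly apart for legibility (FAD-BIX in gold, FAD in red, WT in blue). The regions leave the first 142.86 kb of Grin2b empty in both tables, and in Grin2a they run on beyond the 3′ end.

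FAD was compared with WT to ask how the mark differs in the disease model. The regions of Grin2a, which encodes GluN2A, together held 192 and 247 reads in FAD, against 125 and 160 reads in WT. This is 7.7 and 11.9 RPM in FAD, against 5.11 and 6.02 RPM in WT, with means of 9.79 ± 2.95 and 5.56 ± 0.646 RPM (SD, n = 2 mice each). Both FAD libraries lay above both WT libraries, although 10 of the 12 regions were called in FAD libraries only, a choice that favours FAD. In these 10 regions the sums were 6.18 and 10.7 RPM in FAD, against 3.72 and 4.66 RPM in WT, and in the 2 regions called in WT only they were 1.52 and 1.15 RPM in FAD, against 1.39 and 1.35 RPM in WT. The inputs held 2.09 and 2.85 RPM in FAD, against 2.31 and 3.81 RPM in WT, so that ChIP over input was 3.68 and 4.17 in FAD, against 2.21 and 1.58 in WT.

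The regions of Grin2b, which encodes GluN2B, held 73 and 140 reads in FAD, against 81 and 79 reads in WT, or 2.93 and 6.73 RPM against 3.31 and 2.97 RPM. The means were 4.83 ± 2.69 RPM in FAD and 3.14 ± 0.238 RPM in WT (SD, n = 2 mice each). FAD ChIP 2 was the highest of the libraries and the library labelled FAD 1 the lowest, so the groups overlapped. ChIP over input was 2.33 and 12.7 in FAD, against 2.31 and 1.32 in WT, and the 12.7 rested on 8 input reads in FAD input 2.

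The regions of Grin3a, which encodes the glycine-binding GluN3A, held 42 and 103 reads in FAD, against 76 and 65 reads in WT, or 1.68 and 4.95 RPM against 3.1 and 2.45 RPM. The means were 3.32 ± 2.31 RPM in FAD and 2.77 ± 0.466 RPM in WT (SD, n = 2 mice each). As at Grin2b, the WT libraries lay between the FAD libraries, with FAD ChIP 2 highest. ChIP over input was 1.1 and 6.23 in FAD, against 2.95 and 2.35 in WT.

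None of the 3 sums differed between FAD and WT beyond the replicate error. In edgeR's quasi-likelihood test with TMM scaling, the log2 fold was 0.23 ± 0.26 for Grin2a, -0.06 ± 0.29 for Grin2b and -0.47 ± 0.34 for Grin3a (SE), with Benjamini-Hochberg adjusted p of 0.951, 0.982 and 0.943 over 3706 genes. The median log2 fold of all genes was -0.02. With library totals as scaling this median moved to 0.59, and the folds of Grin2a, Grin2b and Grin3a were 0.81, 0.62 and 0.25, so that the sign turned for Grin2b and Grin3a. Relative to the median of all genes, the values were 0.25, -0.03 and -0.44 with TMM and 0.22, 0.02 and -0.34 with library totals. Without the library labelled FAD 1 the TMM folds were 0.02, 0.02 and -0.25, with adjusted p of 0.997, 0.997 and 0.949. With that library left out and library totals as scaling, the median of all genes was 1.04, and Grin2a stood at 1.09 with an adjusted p of 0.0201 and Grin2b at 1.1 with 0.039, values 0.05 and 0.06 above that median.

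FAD-BIX was compared with FAD to ask how the mark differs under the inhibitor, over a table that holds more regions of each gene. Grin2a held 207 and 268 reads in FAD-BIX, against 232 and 343 reads in FAD, or 10.1 and 12.2 RPM against 9.3 and 16.5 RPM. The means were 11.2 ± 1.46 RPM in FAD-BIX and 12.9 ± 5.08 RPM in FAD (SD, n = 2 mice each). Both FAD-BIX libraries lay between the FAD libraries. ChIP over input was 2.66 and 6.79 in FAD-BIX, against 3.42 and 4.29 in FAD.

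Grin2b held 130 and 135 reads in FAD-BIX, against 106 and 180 reads in FAD, or 6.36 and 6.14 RPM against 4.25 and 8.65 RPM. Grin3a held 73 and 69 reads in FAD-BIX, against 53 and 121 reads in FAD, or 3.57 and 3.14 RPM against 2.13 and 5.82 RPM. In both genes the FAD-BIX libraries lay close together and between the FAD libraries. The means were 6.25 ± 0.156 and 6.45 ± 3.11 RPM at Grin2b and 3.35 ± 0.307 and 3.97 ± 2.61 RPM at Grin3a, FAD-BIX before FAD (SD, n = 2 mice each). ChIP over input at Grin2b was 2.53 and 2.76 in FAD-BIX, against 2.65 and 6.22 in FAD, and at Grin3a it was 2.76 and 2.73 in FAD-BIX, against 1.69 and 4.62 in FAD.

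The 3 sums did not differ between FAD-BIX and FAD beyond the replicate error either. The log2 fold was 0.16 ± 0.21 for Grin2a, 0.34 ± 0.23 for Grin2b and 0.19 ± 0.30 for Grin3a (SE), with adjusted p of 0.939, 0.823 and 0.947 in edgeR's quasi-likelihood test over 3985 genes. The median of all genes was 0.06. With library totals the folds were -0.21, -0.04 and -0.24 beside a median of -0.28, so that all 3 signs turned with the scaling. Relative to the median they were 0.10, 0.29 and 0.13 with TMM and 0.07, 0.23 and 0.04 with library totals. Without the library labelled FAD 1 the TMM folds were 0.11, 0.20 and -0.12, with adjusted p of 0.931, 0.927 and 0.946.

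**Figure D3:**
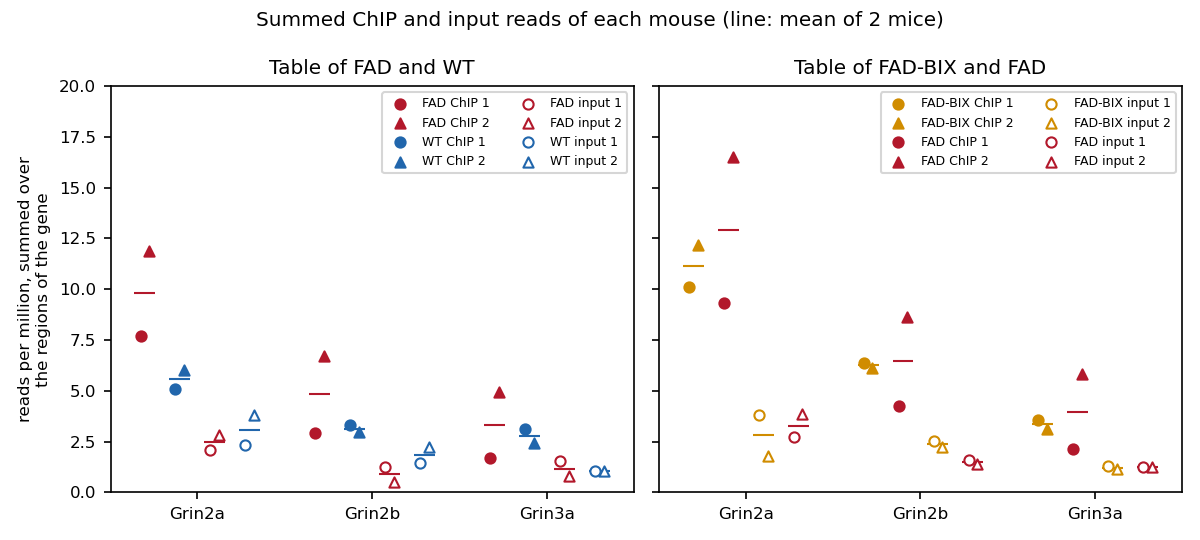
RPM summed over the regions of Grin2a, Grin2b and Grin3a (vertical axis) in the ChIP library (filled) and input library (open) of each mouse, with circles for mouse 1, triangles for mouse 2 and lines for the mean of 2 mice. FAD ChIP 2 is the highest library at all 3 genes in both tables, and the library labelled FAD 1 (red circles) is the lowest ChIP library at Grin2b and Grin3a.

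Per kb, the called regions of Grin2a, Grin2b and Grin3a held ChIP reads at about the level of all called regions, a likeness that the calling favours. The median over the 23 regions was 1.17 and 2.69 RPM per kb in FAD, against 1.1 and 1.34 in WT, against 1.31 and 2.8 in FAD, against 1.23 and 1.31 in WT over all regions of that table. Over the 36 regions it was 1.4 and 1.52 RPM per kb in FAD-BIX, against 1.12 and 2.6 in FAD, against 1.47 and 1.47 in FAD-BIX, against 1.27 and 2.52 in FAD over all regions. Single regions held 1 to 38 ChIP reads and 0 to 14 input reads per library, so counting error is large for each of them.

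Calls followed the library that had most of them. Of the 23 regions, 16 were called in FAD ChIP 2, 4 in the library labelled FAD 1, all 4 at Grin2a, 4 in WT ChIP 1 and 1 in WT ChIP 2. Of all regions of that table, 64.7% were called in FAD ChIP 2, 11.6% in the library labelled FAD 1, 17.4% in WT ChIP 1 and 12.2% in WT ChIP 2. Of the 36 regions, 12 were called in FAD-BIX ChIP 2, 6 in FAD-BIX ChIP 1, 16 in FAD ChIP 2 and 4 in the library labelled FAD 1. Of all regions of that table, the shares were 26% in FAD-BIX ChIP 2, 22.3% in FAD-BIX ChIP 1, 50.2% in FAD ChIP 2 and 8.94% in the library labelled FAD 1. Each table held 2 regions called in more than 1 library. Of the 21 and 34 called in 1 library, 20 and 31 had their highest RPM in that library, which the calling largely fixes.

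In the table of FAD and WT, 18 of the 23 regions passed the filter on low counts. Of these, 0 passed an adjusted p of 0.05 by edgeR's quasi-likelihood test, as did 0.0% of the 27778 regions tested, and DESeq2 and limma on ChIP over input also called 0. At an unadjusted p under 0.05, 0 of the 18 were higher in FAD, against 0.918% of all regions, and 0 were lower, against 4.97%. The smallest p among them was 0.108. DESeq2 gave 0 higher and 1 lower at that p, against 66 and 916 of all 33787 regions. Limma on ChIP over input gave 1 higher and 0 lower, against 1385 and 280 of all 27778. Over all regions the split at that p was 255 higher and 1381 lower with TMM but 659 higher and 71 lower with library totals. The 18 log2 folds were positive in 11 and negative in 7, with a median of 0.18 beside 0.01 over all regions, and the sign went with the call: 11 of 14 regions called in FAD only were positive (67.8% over all such regions) and 0 of 3 called in WT only (1.33%). By RPM, both FAD libraries lay above both WT libraries in 8 of the 23 regions, against 29.6% of all regions, and below them in 1, against 7.09%. All 18 log2 folds kept their sign without the library labelled FAD 1. That refit uses the same remaining libraries, so it is no independent check of the signs. Some folds then lay near 0, with 0.0 at 9635194 to 9635881, -0.01 at 9549781 to 9550056 and 0.02 at 9520720 to 9521119 of Grin2a.

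In the table of FAD-BIX and FAD, 26 of the 36 regions passed the filter. Again 0 passed an adjusted p of 0.05, against 0.0% of the 31055 regions tested, and DESeq2 and limma called 0. At an unadjusted p under 0.05, 1 region was higher in FAD-BIX, against 3.93% of all regions, and 0 were lower, against 1.18%. DESeq2 gave 1 higher and 0 lower at that p, against 711 and 141 of all 43680 regions. Limma on ChIP over input gave 0 higher and 1 lower, against 394 and 689 of all 31055. Over all regions the split was 1221 higher and 365 lower with TMM but 122 higher and 448 lower with library totals. The log2 folds were positive in 12 and negative in 14, with a median of -0.00 beside 0.03 over all regions. Here too 8 of 10 regions called in FAD-BIX only were positive (94.7% over all such regions) and 4 of 15 called in FAD only (22.9%). By RPM, both FAD-BIX libraries lay above both FAD libraries in 4 of the 36 regions, against 12.6% of all, and below them in 6, against 19.5%. Of the 26 log2 folds, 20 kept their sign without the library labelled FAD 1, again in a refit of the same remaining libraries. In that refit 10 were positive and 16 negative, with a median of -0.25 beside 0.10 over all regions.

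**Figure D4:**
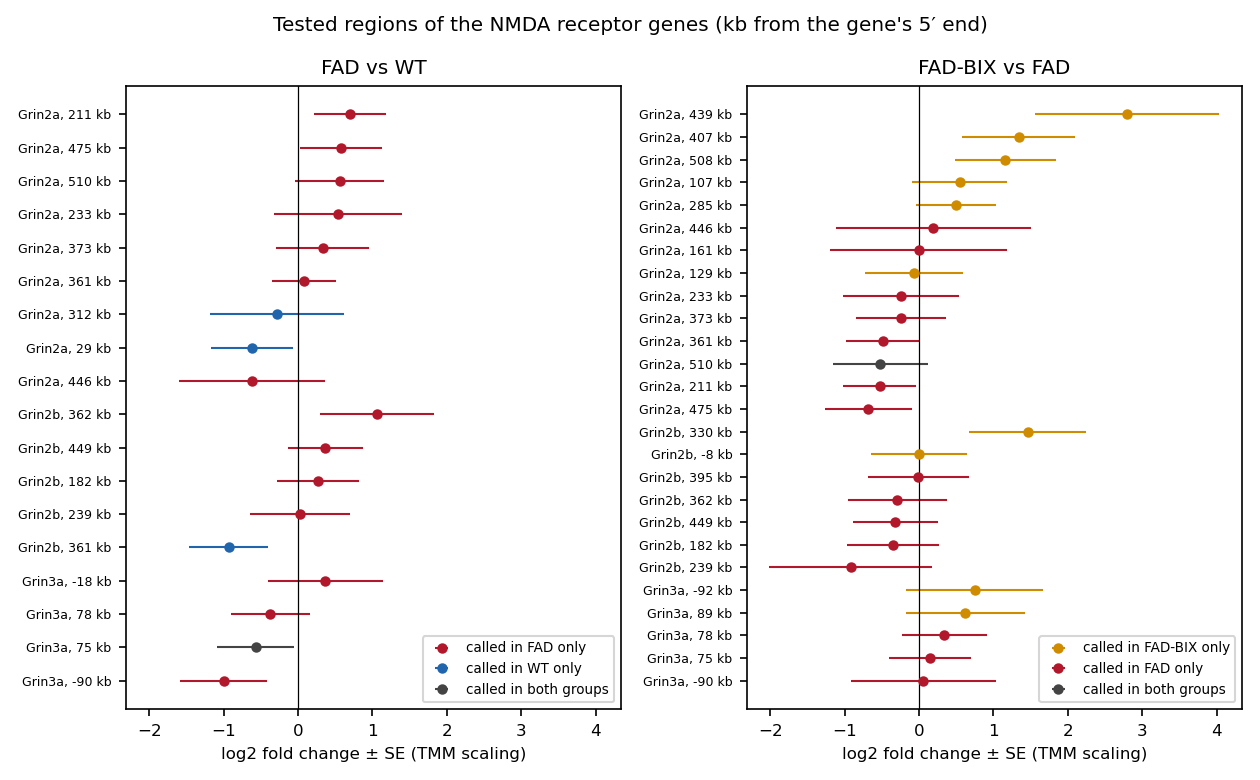
Log2 fold change ± SE of ChIP reads with TMM scaling for the tested regions of Grin2a, Grin2b and Grin3a (18 in FAD vs WT, 26 in FAD-BIX vs FAD), labelled by distance in kb from the gene's 5′ end and coloured by the groups in which the region was called. Regions called in FAD-BIX only reach the highest values on the right (2.80 at Grin2a, 439 kb) and those called in WT only are negative on the left.

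The single region past an unadjusted p of 0.05 lay beyond the 3′ end of Grin2a, 10.23 kb from the gene, at chromosome 16, 9557359 to 9557668, between genes. It held 17 and 10 reads in FAD-BIX, against 2 and 3 reads in FAD. Both FAD-BIX libraries lay above both FAD libraries, and the inputs held 0 and 0 reads in FAD-BIX, against 0 and 1 in FAD. The log2 fold was 2.80 ± 1.24 (SE), with an unadjusted p of 0.0316 and an adjusted p of 0.897 by edgeR's quasi-likelihood test. It was called in FAD-BIX ChIP 1 alone. With library totals as scaling, 0 subunit gene regions were higher at an unadjusted p under 0.05, against 122 of all 31534 regions tested. The log2 fold of this region was 2.76 without the library labelled FAD 1. FAD then rested on the 3 reads of FAD ChIP 2, so this fold does not show that the call holds.

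Inside Grin2a, the region with the highest mean RPM in the table of FAD-BIX and FAD was in intron 3, at 9785217 to 9785692 and 210.63 kb from the 5′ end. It is the only region of the subunit genes called in both FAD libraries. It held 17 and 17 reads in FAD-BIX, 32 and 33 in FAD, and 12 and 19 in WT. The FAD libraries agreed closely here and lay above all 4 other libraries, also by RPM (1.28 and 1.59 in FAD, against at most 0.831 in FAD-BIX and 0.715 in WT). The log2 fold was 0.70 ± 0.48 for FAD over WT (unadjusted p 0.175) and -0.53 ± 0.49 for FAD-BIX over FAD (unadjusted p 0.285) in edgeR's quasi-likelihood test, so neither passed. These folds were 0.32 and -0.31 without the library labelled FAD 1. The 2 comparisons share the FAD libraries, and a region called in FAD is likely to be high there.

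In intron 11 of Grin2a, the region at 9635194 to 9635881 was the widest of all subunit gene regions at 687 bp. It held 16 and 17 reads in FAD-BIX, 25 and 38 in FAD, with 22 and 22 in WT, and log2 folds of 0.08 ± 0.43 for FAD over WT and -0.49 ± 0.49 for FAD-BIX over FAD. Its input held 12 and 0 reads in FAD, so that ChIP over input, with 1 read added to each count, was 1.15 in the mouse labelled FAD 1 and 28.3 in FAD 2. The neighbouring region of the same intron, at 9623301 to 9623701, counted 9 and 15 reads in FAD-BIX, 13 and 26 in FAD, and 5 and 18 in WT. The mice of each group differed there, and the 3 groups overlapped.

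At 9763284 to 9763559 in intron 3, the counts were 7 and 11 reads in FAD-BIX, 8 and 22 in FAD, and 11 and 3 in WT. Beyond the 3′ end, at 9520720 to 9521119, they were 12 and 10 reads in FAD-BIX, 25 and 21 in FAD, and 12 and 12 in WT, and both FAD libraries lay above the 4 others. The log2 folds there were 0.58 ± 0.55 for FAD over WT and -0.68 ± 0.59 for FAD-BIX over FAD, but 0.02 and -0.28 without the library labelled FAD 1. Farther out, the region at 9485391 to 9485808 was called in FAD-BIX ChIP 2 and in FAD ChIP 2 and held 5 and 19 reads in FAD-BIX, against 14 and 34 in FAD. In the other table its shorter form, 9485480 to 9485808, held 12 and 31 reads in FAD, against 6 and 15 in WT.

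In Grin2b, the region with the highest mean RPM in both tables was in the 3′ UTR, at chromosome 6, 135724537 to 135725019. It held 11 and 15 reads in FAD-BIX, 17 and 27 in FAD, and 13 and 12 in WT, so both FAD libraries lay above the 4 others by reads. By RPM the lower FAD value and the higher FAD-BIX value were both 0.682. The log2 folds were 0.37 ± 0.51 for FAD over WT and -0.32 ± 0.57 for FAD-BIX over FAD. The WT inputs held 14 and 11 reads at this region, about as many as the WT ChIP libraries, with ChIP over input of 0.906 and 0.706.

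Regions of Grin2b also reached into coding exons. From intron 7 into exon 8, at 135778667 to 135779043, there were 12 and 10 reads in FAD-BIX, 9 and 22 in FAD, and 6 and 8 in WT. From intron 9 into exon 10, at 135772419 to 135772832, there were 7 and 22 reads in FAD-BIX, against 10 and 5 in FAD. In both regions the FAD-BIX and FAD libraries overlapped.

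In intron 5 of Grin2b a pair of regions 336 bp apart differed in the group of their calls. The region called in FAD ChIP 2, at 135811679 to 135811954, held 14 and 19 reads in FAD, against 3 and 9 in WT (log2 fold 1.06 ± 0.77). The region called in WT ChIP 1, at 135812290 to 135812701, held 11 and 16 reads in FAD, against 22 and 16 in WT (log2 fold -0.93 ± 0.53, unadjusted p 0.108 in edgeR's quasi-likelihood test). This p was the smallest of the subunit gene regions in the table of FAD and WT. The folds of the pair were 0.90 and -1.04 without the library labelled FAD 1. In FAD-BIX the first of the pair held 11 and 9 reads.

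Other regions of Grin2b were intronic. In intron 3, at 135934246 to 135934639, there were 10 and 1 reads in FAD-BIX, 8 and 22 in FAD, and 7 and 14 in WT. At 135990993 to 135991439 in the same intron there were 14 and 9 reads in FAD-BIX, 12 and 29 in FAD, and 13 and 11 in WT. In intron 4, at 135843580 to 135843846, FAD-BIX held 13 and 17 reads and FAD 8 and 6, and both FAD-BIX libraries lay above both FAD libraries. This region had the smallest p of Grin2b in that table, with a log2 fold of 1.46 ± 0.79 and an unadjusted p of 0.0746 by edgeR's quasi-likelihood test, and a fold of 1.94 without the library labelled FAD 1.

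In Grin3a, the region in exon 3, at chromosome 4, 49770620 to 49771275, had the highest mean RPM of the gene and was called in FAD ChIP 2 and in WT ChIP 1. It held 18 and 35 reads in FAD, against 38 and 18 in WT, a difference between mice of the same group in both. The log2 fold was -0.57 ± 0.52. In the other table the region ended at 49771092 and held 17 and 17 reads in FAD-BIX, against 12 and 31 in FAD (log2 fold 0.15 ± 0.55). The region of intron 3 at 49767409 to 49767938, 2682 bp away, held 20 and 15 reads in FAD-BIX, 10 and 29 in FAD, and 13 and 23 in WT.

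Upstream of Grin3a, the region at 49935633 to 49935935 lay 89.61 kb from the gene and held 7 and 10 reads in FAD-BIX, 6 and 17 in FAD, and 14 and 19 in WT. It had the smallest p of Grin3a in FAD vs WT, with a log2 fold of -1.0 ± 0.59 and an unadjusted p of 0.117 by edgeR's quasi-likelihood test. The nearer upstream region at 49863658 to 49863948, 17.64 kb from the gene, held 4 and 5 reads in FAD-BIX, 8 and 22 in FAD, and 11 and 5 in WT. The region at 49937373 to 49937671, present in the table of FAD-BIX and FAD alone, held 16 and 7 reads in FAD-BIX, against 12 and 5 in FAD. It had the smallest p of Grin3a in that table, with a log2 fold of 0.75 ± 0.92, or 1.82 without the library labelled FAD 1.

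Regions with the same ends in both tables allowed all 3 groups to be set side by side. There were 17 of them, 9 at Grin2a, 5 at Grin2b and 3 at Grin3a, and all were called in a FAD library, so that high FAD values were built into their choice. Summed over the 17, the libraries held 8.71 and 7.77 RPM in FAD-BIX, 9.06 and 18.2 RPM in FAD, and 6.74 and 7.9 RPM in WT. The library labelled FAD 1 lay closer to the FAD-BIX and WT libraries than to FAD ChIP 2, which stood far above the rest. The inputs held 4.42 and 3.95 RPM in FAD-BIX, 3.55 and 2.05 RPM in FAD, and 3.79 and 5.37 RPM in WT.

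By gene, these sums were 4.35 and 4.41 RPM in FAD-BIX, 5.69 and 9.23 in FAD, and 3.47 and 4.1 in WT at Grin2a, where both FAD libraries lay above the others. At Grin2b they were 2.84 and 2.0 RPM in FAD-BIX, 2.41 and 5.72 in FAD, and 1.72 and 2.03 in WT. At Grin3a they were 1.52 and 1.36 RPM in FAD-BIX, 0.962 and 3.27 in FAD, and 1.55 and 1.77 in WT, and the library labelled FAD 1 was the lowest. The FAD mean was above both other groups in 16 of the 17 regions, against 95.3% of all 22214 regions with the same ends. Both FAD libraries were above all 4 others in 5 of the 17, 4 of them at Grin2a, against 24.4% of all. FAD ChIP 2 was above all 4 libraries of the other groups in 16 (90.6% of all) and the library labelled FAD 1 in 6 (32.1% of all).

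**Figure D5:**
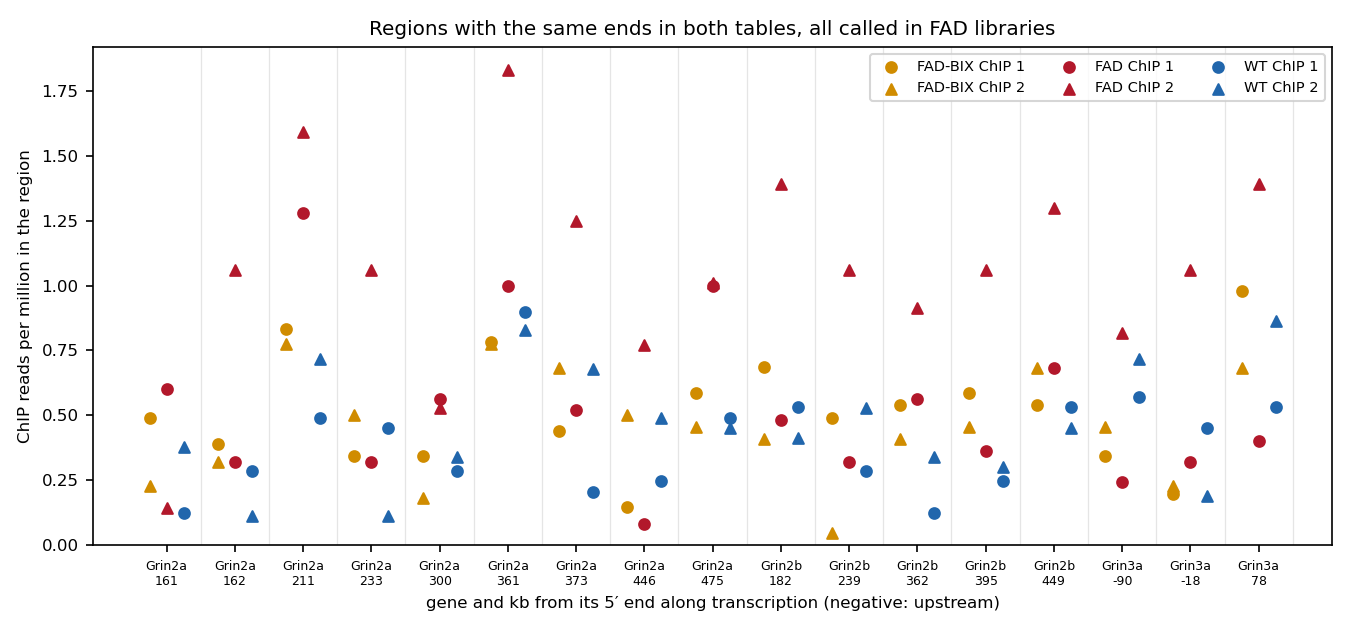
ChIP RPM (vertical axis) of every library in the 17 regions of Grin2a, Grin2b and Grin3a with the same ends in both tables, labelled by gene and distance in kb from its 5′ end (circles, mouse 1; triangles, mouse 2). FAD ChIP 2 (red triangles) is above all 4 libraries of the other groups in 16 regions and the library labelled FAD 1 (red circles) in 6.

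In the authors' deposited table of FAD and WT, which compares ChIP over input, 18 of the 23 log2 fold changes were positive and 5 negative, and 1 region had a p-value under 0.05. That region lay beyond the 3′ end of Grin2a, at 9485480 to 9485808, with the authors' log2 fold change of 1.04 and p-value of 0.0375. Over all regions of the authors' deposited table, 2.14% were higher and 0.533% lower at that p. The share of positive values over all regions was not computed, so the 18 positive values are not read as particular to these genes. Of the 23 regions, 18 were called in FAD only. On ChIP over input in limma, the median log2 fold of all regions tested was itself 0.77. In the authors' deposited table of FAD-BIX and FAD, 20 values were positive and 16 negative. At a p-value under 0.05, 1 region was higher and 1 lower, against 0.778% and 1.31% of all regions. The share of positive values over all regions was not computed here either, and the limma median of all regions tested was -0.32. In the authors' deposited table the higher region was in intron 12 of Grin2a (9588463 to 9588761, log2 fold change 2.31, p-value 0.0379) and the lower in its intron 5 (9695922 to 9696162, log2 fold change -2.31, p-value 0.0114). The first held 22 and 10 ChIP reads in FAD-BIX, against 3 and 15 in FAD, and the second held 7 and 4 in FAD-BIX, against 14 and 11 in FAD, where both FAD inputs held 0 reads. The q-value was 1 in every row of both of the authors' deposited tables.

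Genes of proteins that anchor or signal with NMDA receptors were taken from a list of 51 scaffold, adhesion, kinase and transporter genes, of which 15 had regions (162 and 234 in the 2 tables) and 14 could be tested in each. In FAD vs WT, 0 of the 14 were higher and 1 was lower at an unadjusted p under 0.05, against 1.3% and 3.56% of all genes, and the median log2 fold was -0.19 beside -0.02. The lower gene was Nlgn1, which encodes the postsynaptic adhesion protein neuroligin 1. Its 17 regions held 241 and 259 reads in FAD, against 286 and 312 in WT (log2 fold -0.63 ± 0.28, unadjusted p 0.0425, adjusted p 0.926 in edgeR's quasi-likelihood test). By RPM its FAD values were 9.66 and 12.5 and both WT values were 11.7, so the groups overlapped on that scale. Rasgrf2, a Ras exchange factor, stood at -1.12 ± 0.52, over 1 region with 54 and 22 reads in FAD, against 76 and 59 in WT. On the other side, the postsynaptic scaffold gene Shank2 stood at 1.37 ± 0.69, over 1 region with 17 and 26 reads in FAD, against 8 and 4 in WT. Neto1, which encodes a receptor auxiliary protein, stood at 0.53 ± 0.59 over 2 regions. Without the library labelled FAD 1 the folds were -0.31 for Neto1, 1.29 for Shank2, -0.99 for Nlgn1 and -2.41 for Rasgrf2. For Rasgrf2, FAD was then represented by the 22 reads of FAD ChIP 2. That refit leaves 1 FAD library, so partner genes are given by fold alone and it is not read for calls. With library totals the partner genes at an unadjusted p under 0.05 were 1 higher and 0 lower. Over all genes, 104 of 3711 were under that p in either direction with this scaling.

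In FAD-BIX vs FAD, 3 of the 14 partner genes had an unadjusted p under 0.05 with higher values and 0 with lower, against 3.96% and 1.18% of all genes, and the median log2 fold was 0.27 beside 0.06. In the TMM fit of all libraries, the smallest adjusted p of these genes was 0.809 by edgeR's quasi-likelihood test. With library totals the partner genes at an unadjusted p under 0.05 were 0 higher and 0 lower. Over all genes, 50 of 4040 were under that p in either direction with this scaling. Without the library labelled FAD 1 the folds of Nlgn1 and Lin7a were 0.96 and 1.29. Those of Shank2 and Grip1 were then -0.72 and -0.21, again given by fold alone. Lin7a, a scaffold gene whose protein family carries receptors to synapses, held 79 and 169 reads in FAD-BIX, against 81 and 79 in FAD, so the excess lay in FAD-BIX ChIP 2 (log2 fold 1.02 ± 0.34, unadjusted p 0.00929, adjusted p 0.809 in edgeR's quasi-likelihood test). Nlgn1 held 358 and 287 reads in FAD-BIX, against 285 and 260 in FAD over 20 regions, and both FAD-BIX libraries lay above both FAD libraries (0.62 ± 0.24, adjusted p 0.809 in the same edgeR test). The 2 lowest were Shank2 at -0.66 ± 0.68 and Grip1, a scaffold gene of AMPA receptors, at -0.17 ± 0.42. The tests of both comparisons share the FAD libraries, so values of Nlgn1 and Shank2 in them are not independent.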

How the data were processed

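H3K9me2 ChIP and input libraries of 6 mice were analysed from the 2 comparison tables the authors deposited. The submitters' processing notes list MACS2 2.1.0, BWA 0.7.12, Trimmomatic and FastQC. The notes name mm9, but 96.5% and 96.3% of 2230 and 2659 genes matched by symbol overlapped their RefSeq position in GRCm38.p6, so coordinates are given as GRCm38. They are printed as deposited, and nothing read here says whether they start at 0 or 1. The count columns of the deposited tables hold reads per region and library, per the file headers. In the deposited RPM columns 1 had been added to each count before scaling by a library constant (largest relative deviation 4.75e-06), which gave the library totals. RPM printed here are counts over these totals, without the added 1. The deposited fold is a ratio of ChIP RPM to input RPM, and the authors' log2 fold change, p-value and q-value compare these ratios between groups. Reads were 50 bp single-end or 150 bp paired-end per the labels' protocols, with no word on which library had which. The deposited tables list for each region the libraries in which it was called, so a region is listed because of reads that are then compared.

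The 34413 and 44428 rows were reduced to 33787 and 43680 regions, 1 per position. The test on counts was edgeR's quasi-likelihood test (edgeR 4.0.16, R 4.3.3) with TMM scaling, its default filter on low counts and no replicate block, over all regions, and over all named genes on counts summed per gene, with Benjamini-Hochberg adjustment at 0.05. The SE is the log2 coefficient divided by the root of F, uses variation shared across features, and is large for low counts. With 2 mice per group an exact permutation test cannot go below a two-sided p of 0.333, so none was used for single values. Nothing says whether the mice of a group shared a litter or a preparation. Alternatives were DESeq2 1.42.0, its size factors, library totals, no filter, a replicate block, each library left out, ChIP over input in limma 3.58.1, regions overlapping the gene only, and no regions called in FAD ChIP 2 alone. The alternatives for the partner genes and single regions were chosen after seeing the data. The fits were tested on simulated counts.

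The 7 genes, the partner list and the marker lists were chosen with earlier results of these data known. Per gene and table, the regions given in full were those with the smallest p, with the highest mean RPM, with calls in at least 2 libraries or at exons, UTRs or starts, and up to 6 regions found in both tables at 50% reciprocal overlap. Partner genes were those with the 2 smallest p per direction. The values of 1 further partner gene are not reported here. Regions of the authors' table, the regions between which distances are given, and Thy1 were also chosen after their values were seen. With no genome of this build at hand, no sequence is printed.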

Additional observations from a re-analysis of the deposited data

How the results depend on the processing

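In FAD vs WT, where 0 regions and 0 genes passed an adjusted p of 0.05, library totals gave 5 regions and 3 genes, and leaving out regions called in FAD ChIP 2 alone gave 8 and 14. Leaving out 1 library gave 0 to 119 regions and 0 to 32 genes, the most without the library labelled FAD 1. With library totals as well, leaving out that library gave 12 regions and 572 genes, and leaving out FAD ChIP 2 gave 22 and 17. DESeq2 called 1 gene. Subunit gene regions higher at an unadjusted p under 0.05, 0 in the fit reported, numbered 1 without regions called in FAD ChIP 2 alone and 1 in limma. Over all regions tested, 302 of 10481 and 1385 of 27778 were higher under these settings. Subunit gene regions lower, also 0, numbered 1 with no filter and 1 with DESeq2, against 1700 and 916 of all 33787 regions. The count of higher regions also moved with the library labelled FAD 1 left out and library totals as scaling. Counts of subunit gene regions from fits that leave 1 library in a group are not given.

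For the summed folds in FAD vs WT, Grin2a was positive under all 14 alternatives (0.02 to 1.09). It passed only without the library labelled FAD 1 with library totals (1.09, adjusted p 0.0201 in edgeR). Grin2b (-0.06) turned to 0.62 with library totals, 1.1 with these and without the library labelled FAD 1, and 0.16 with overlapping regions only. In limma Grin2b turned to 1.55, beside a median of 0.86 over all genes, and so stood at 0.69 relative to that median. It stood at -0.72 without regions called in FAD ChIP 2 alone and ranged from -0.22 to 0.07 with 1 library left out. Grin3a (-0.47) turned to 0.25 with library totals, 0.84 with these and without the library labelled FAD 1, and 0.11 without regions called in FAD ChIP 2 alone. Relative to the medians of all genes under these settings, Grin3a stood at -0.34, -0.21 and 0.19, in this order. In limma Grin3a was -0.03, or -0.89 relative to the median of 0.86. With 1 library left out, Grin3a ranged from -0.78 (without FAD ChIP 2) to -0.24 (without WT ChIP 1), with -0.72 without WT ChIP 2.

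In FAD-BIX vs FAD, where 0 regions and 0 genes passed, library totals gave 5 and 4, no filter 17 and 9, and leaving out regions called in FAD ChIP 2 alone 7 and 8. Leaving out 1 library gave 12 to 26 regions and 13 to 24 genes. With library totals as well, leaving out the library labelled FAD 1 gave 17 and 72, and leaving out FAD ChIP 2 gave 18 and 13. The 1 subunit gene region higher at an unadjusted p under 0.05 became 0 with library totals, with overlapping regions only and in limma. It also became 0 without regions called in FAD ChIP 2 alone. Over all regions tested, 122 of 31534, 289 of 6419, 394 of 31055 and 63 of 17669 were higher under these settings, in this order. Taking overlapping regions only leaves this region out by rule, since it lies outside the gene, so that setting is no check of it. Subunit gene regions lower, 0 in the fit reported, numbered 1 in limma, against 689 of all 31055 regions. The counts of higher and of lower regions also moved in fits with 1 library left out, and are not given for them.

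For the summed folds in FAD-BIX vs FAD, Grin2a (0.16) turned to -0.21 with library totals, -0.56 with these and without the library labelled FAD 1, and -0.23 without regions called in FAD ChIP 2 alone, and ranged from -0.04 to 0.28 with 1 library left out. Grin2b (0.34) turned to -0.04 with library totals, -0.47 with these and without the library labelled FAD 1, and -0.6 in limma. Grin3a (0.19) turned to -0.24, -0.79 and -0.03 under the same 3 alternatives and ranged from -0.12 to 0.43 with 1 library left out. The medians of all genes under these 3 alternatives were -0.28, -0.62 and -0.3. Relative to them, Grin2b stood at 0.23, 0.15 and -0.3 and Grin3a at 0.04, -0.17 and 0.27. None of these adjusted p passed. The cause of these changes was not tested. A lone library of a group was assumed to vary like the others.

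Replicate numbers do not pair the mice by any label, and deviations of same-numbered libraries correlated at 0.06 and -0.04 over regions. A replicate block called 0 regions in both tables, 0 genes in FAD vs WT and 7 genes in FAD-BIX vs FAD, none of them a subunit gene, and changed no call of the subunit genes or their regions. It was not run on the partner gene counts. At an unadjusted p under 0.05 it gave 240 higher and 1606 lower regions in FAD vs WT and 1097 higher and 315 lower in FAD-BIX vs FAD. Depth limits every single region, with medians of 9.5 to 22 reads per library, and relative scaling cannot show a change shared by the whole genome.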

Other observations

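Neighbouring regions of the subunit genes were in places called in different libraries. At Grin2a, regions of intron 3 lying 898 bp apart were called in FAD ChIP 2 (9833617 to 9833941) and in the library labelled FAD 1 (9834839 to 9835079). The first counted 8 and 7 reads in FAD-BIX, 8 and 22 in FAD, and 7 and 3 in WT. The second counted 10 and 5 reads in FAD-BIX, 15 and 3 in FAD, and 3 and 10 in WT, so the order of the FAD libraries turned within this distance. Upstream of Grin3a, regions 1438 bp apart were called in FAD ChIP 2 (49935633 to 49935935) and in FAD-BIX ChIP 1 (49937373 to 49937671). In the table of FAD-BIX and FAD, the 9 regions of Grin2a called in FAD-BIX only summed to 5.53 and 6.91 RPM in FAD-BIX, against 3.05 and 5.63 RPM in FAD. What the calling contributes to these differences was not tested.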
